A study of Mus musculus with 4 samples.

Results

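Interferon-stimulated genes are the genes that cells switch on when an interferon binds its receptor. A list of 40 such genes was matched by symbol to the gene rows of the deposited matrices, and 39 of the 40 had a row among the 32285 genes. Mx1 was not analysed here. The rule names the genes by symbol and sets no limit on a measured value, but the list was drawn up with earlier results of these data known.

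Single-cell RNA sequencing (scRNA-seq) had been done on sorted live CD45+ cells, that is microglia and other leukocytes, of thalamus and hippocampus (HPC) taken from C57B6/J mice with cortical brain injury. In this model a part of the sensory and motor cortex is resected on a single side, and both regions were dissected from the injured hemisphere and homogenised mechanically. Each region gave 4 sets of cells that carried multiplexing oligos, and each set was taken as 1 mouse, which the labels do not state (n = 4 and 4). Every mouse was injured and none was sham-operated, each region was a library of its own so that region and library cannot be told apart, and the labels give neither the day after injury nor the sex or age.

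Type I interferons (interferon-alpha and -beta) bind the receptor Ifnar1/Ifnar2, whose kinases Jak1 and Tyk2 activate Stat2. With Irf9 it is part of a complex, ISGF3, that binds the interferon-stimulated response element (ISRE) in target promoters. Interferon-gamma acts through the receptor Ifngr1/Ifngr2 and the gamma-activated site (GAS) in its target promoters. The products of the induced genes sense viral nucleic acid, block its translation or replication, or feed back on the pathway, and in brain a small state of microglia rich in these transcripts is known from infection, ageing and injury models.

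Promoter sequence is shown for 6 members whose transcripts carry results that follow: Isg15, Phf11b and Ifi207 for the regional difference in microglia, Ifit1 for the cells in which the transcripts were concentrated, and Rsad2 and Oas3 for the difference between neutrophils and microglia. All 6 hold a core of the ISRE, as defined next. Irf7, Slfn2 and Ifi35 of the first result and Oasl1 of the last hold none in their windows and are not shown. Each run is the 150 bases before the RefSeq start of the gene, read 5′ to 3′ on the strand of the gene (GRCm38.p6), and capitals mark matches to the core of the ISRE, GAAANNGAAA on either strand (TTTCNNTTTC when read on the other strand). The windows are chr4:156200819-156200968 (minus strand) for Isg15, chr14:59341331-59341480 (minus strand) for Phf11b, chr1:173741810-173741959 (minus strand) for Ifi207, chr19:34640739-34640888 (plus strand) for Ifit1, chr12:26456453-26456602 (minus strand) for Rsad2 and chr5:120777660-120777809 (minus strand) for Oas3.
Isg15: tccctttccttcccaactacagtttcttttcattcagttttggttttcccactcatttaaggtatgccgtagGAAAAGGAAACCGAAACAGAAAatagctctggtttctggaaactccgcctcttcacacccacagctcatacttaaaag
Phf11b: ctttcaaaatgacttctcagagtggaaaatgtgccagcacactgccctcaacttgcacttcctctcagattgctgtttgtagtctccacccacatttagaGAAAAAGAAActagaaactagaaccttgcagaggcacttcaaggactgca
Ifi207: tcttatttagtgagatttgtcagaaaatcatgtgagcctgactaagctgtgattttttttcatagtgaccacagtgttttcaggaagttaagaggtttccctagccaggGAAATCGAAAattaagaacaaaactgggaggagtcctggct
Ifit1: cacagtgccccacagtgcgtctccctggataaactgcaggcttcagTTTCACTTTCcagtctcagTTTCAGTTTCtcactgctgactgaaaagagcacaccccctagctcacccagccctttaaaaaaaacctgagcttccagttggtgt
Rsad2: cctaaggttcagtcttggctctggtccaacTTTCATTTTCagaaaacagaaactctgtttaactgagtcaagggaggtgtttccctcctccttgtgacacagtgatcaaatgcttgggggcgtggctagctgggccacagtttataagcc
Oas3: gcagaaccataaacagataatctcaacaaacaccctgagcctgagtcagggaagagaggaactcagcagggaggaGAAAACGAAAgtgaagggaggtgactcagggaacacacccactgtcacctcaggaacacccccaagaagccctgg

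The Isg15 window held 3 copies of the core that overlap in a single run, and that of Ifit1 held 2 separate copies on the other strand. In windows of 250 bases before to 50 after the start, RefSeq sequence was matched for 33 of the 40 members, and 23 of these 33 (69.7%) held the ISRE core against 3.99% of 27025 genes of the same table. The core of the GAS, TTCNNNGAA (the same letters on both strands, and able to overlap a match of the other motif), was found in 6 of 33 members (18.2%) against 9.55% of all genes. No ISRE core was in the windows of Ifi209, Ifi35, Ifit2, Irf7, Irf9, Oasl1, Oasl2, Phf11d, Slfn2 and Xaf1. A match is a run of letters and not a bound site.

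After filtering, 24939 of 29190 cells with 119958441 UMIs (molecules counted once) were kept, 9789875 to 26636526 UMIs per set and 4262 to 4657 at the median cell. Cells were put in classes by marker genes that are not members: 18745 microglia, 2800 T cells, 118 NK cells, 932 neutrophils, 306 macrophages (monocytes included) and 244 dendritic cells. A further 1211 cells with markers of more than 1 class were left out. Counts were summed over the cells of a class in each set and are given as CPM, the UMIs of a gene scaled to a common total of gene UMIs per sum (counts per 1e6), which compares a gene between samples and not genes with each other. The class markers were checked on the sums: Cd3e stood at 647 CPM in T cells and 2.38 in microglia, and P2ry12 at 1630 CPM in microglia and 28.5 in T cells. Of the macrophages 97 of 306, and of the dendritic cells 63 of 244, had no more than the 3 markers that the class needed. The count of cells per set reached 20 in 8 sets for microglia and T cells, in 6 for neutrophils, 5 for macrophages, 3 for dendritic cells and 1 for NK cells. Of the T cells, HPC set 3 held 30.

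Where in the immune cells of the injured brain the members were expressed was asked first, by class. Summed over the 39 members, the level in all cells of a class was 8353 CPM (exact 95% Poisson interval 8226 to 8481) in macrophages, 6799.9 CPM (exact 95% Poisson interval 6680.1 to 6921) in dendritic cells, 5879 CPM (exact 95% Poisson interval 5770.1 to 5990.4) in neutrophils, 3109.7 CPM (exact 95% Poisson interval 3076 to 3144) in T cells, 1801 CPM (exact 95% Poisson interval 1684 to 1924) in NK cells and 1623 CPM (exact 95% Poisson interval 1614 to 1631) in microglia. The intervals cover counting error only. A single gene made up a large part of some sums: Ifitm3 gave 2513 CPM in macrophages, 2346 in dendritic cells and 828 in neutrophils. The order of the classes by the sum therefore leans on that gene. By the mean over sets of at least 20 cells, each set with equal weight, microglia were the highest class for 0 of 39 members, neutrophils for 14, dendritic cells for 11, macrophages for 10 and T cells for 4. By region, neutrophils were highest for 6 members over the thalamus sets and for 18 over the HPC sets, and macrophages for 14 and 5. These rankings rest on 3 thalamus and 3 HPC sets of neutrophils, 3 and 2 of macrophages and 2 and 1 of dendritic cells. In the tests between regions further on, with low counts filtered, no member was called in these classes. Oasl1, Oasl2, Oas3, Trim30a, Ddx58 and Slfn2 were highest in neutrophils in both regions.

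**Figure D1:**
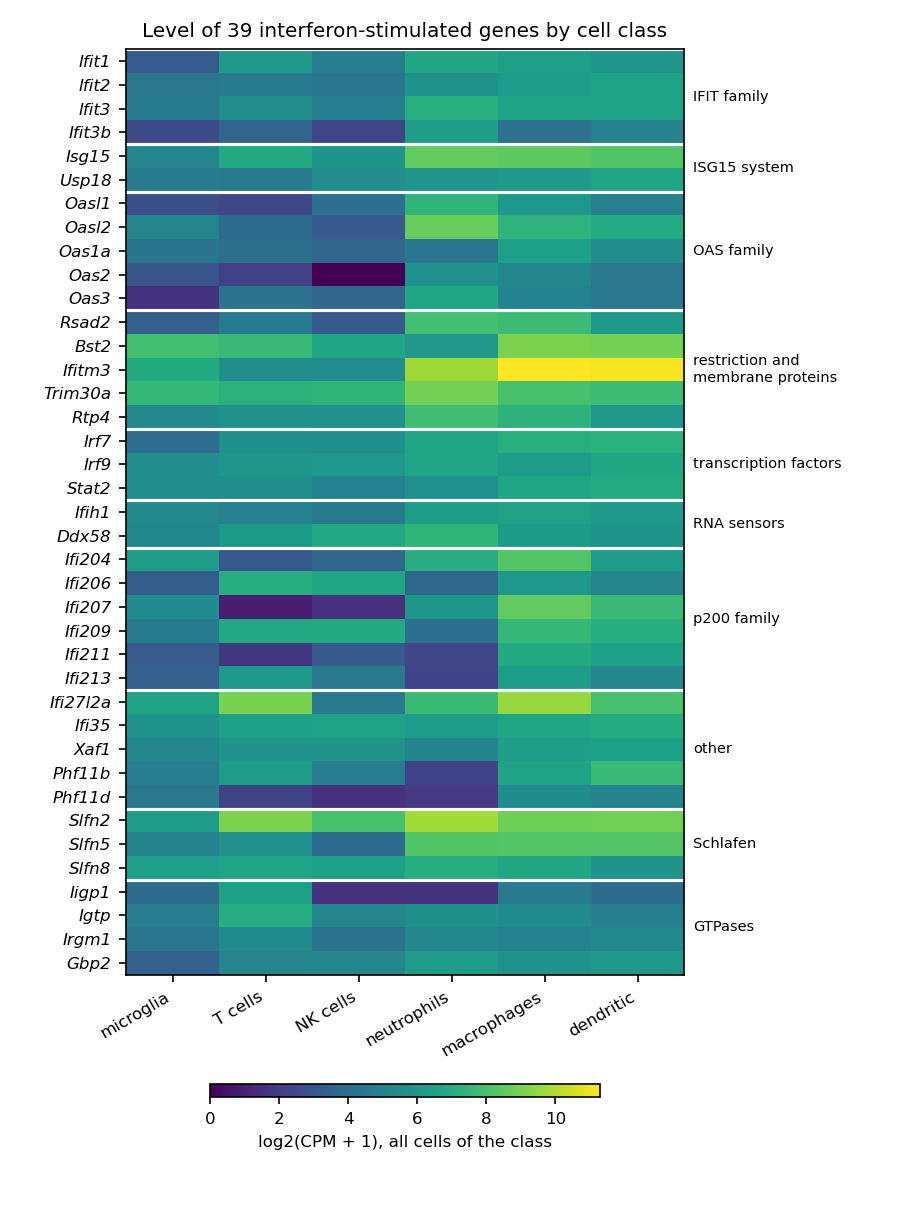
Heat map of the level of each of 39 members (rows, grouped by role) in the 6 cell classes (columns), as log2(CPM + 1) over all cells of the class, from dark (low) to yellow (high). Ifitm3 was brightest in macrophages and dendritic cells, Oas3, Oasl1 and Rsad2 in neutrophils, and Slfn2, Ifi206 and Ifi209 were brighter in T cells than in microglia.

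Macrophages and dendritic cells were above microglia for nearly the whole list. In the fit of all classes with the set as a block (edgeR quasi-likelihood test, adjusted over all genes), 35 of 39 members were higher in macrophages and 0 lower, where 21.2% of all genes tested were higher and 31.6% lower. The median log2 fold change of the members was 1.81, that of all genes -0.25. In dendritic cells 32 of 39 were higher and 0 lower, with a median of 1.69, beside 21.7% of all genes higher, 29.7% lower and a median of -0.25.

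Ifitm3, a membrane protein that keeps viruses from fusing in endosomes, had the largest difference in both. It ranged over 48.2, 108 and 209 CPM (lowest, median and highest of 8 sets) in microglia. In macrophages the 5 sets ran from 1503 to 3094 CPM, with a median of 2585, and in dendritic cells the 3 sets stood at 2255, 2345 and 2818 CPM. Every set of either class was above every set of microglia, and the log2 fold change was 4.23 ± 0.24 (SE, edgeR adjusted p = 1.7e-16) in macrophages and 4.19 ± 0.27 (edgeR adjusted p = 2.5e-15) in dendritic cells.

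Oas3 is an enzyme that makes 2′-5′ oligoadenylate when bound to double-stranded RNA and so activates RNase L. It differed by 3.82 ± 0.44 on the log2 scale in macrophages and 3.27 ± 0.57 in dendritic cells. Its level in microglia was 0.788, 1.45 and 5.34 CPM (lowest, median and highest). Rsad2 (viperin), which makes a nucleotide that ends viral RNA chains, differed by 3.54 ± 0.47 in macrophages, but its 5 sets ran from 3.68 to 689 CPM around a median of 27.6. The lowest macrophage set was thus below the lowest microglial set, at 4.57 CPM. Slfn5, of the Schlafen family, stood at 279.6, 287 and 405 CPM in dendritic cells and 12.5, 31.4 and 57.4 CPM in microglia, a log2 fold change of 3.12 ± 0.26.

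By role, macrophages were higher for all 4 IFIT genes, both genes of the ISG15 system, all 5 OAS genes, all 6 p200 genes and all 3 transcription factors. The members that did not pass there were Slfn8, Trim30a, Iigp1 and Irgm1, with log2 fold changes of 0.22, 0.32, 0.46 and 0.57. In dendritic cells Ifi204, a DNA-binding p200 protein, had a log2 fold change of -0.66 ± 0.32 and Slfn8 of -0.49 ± 0.30, both short of the threshold.

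Neutrophils had 27 of 39 members higher and 5 lower than microglia, beside 29.1% and 37.2% of all genes, with a median log2 fold change of 1.19 against -0.23 over all genes. Without HPC set 1, which held 510 of the 932 neutrophils, 17 were higher. The genes with the largest differences were Oas3, Rsad2 and Oasl1. Oas3 stood at 15.97, 92.5 and 125 CPM (lowest, median and highest of 6 sets), all above the highest microglial set at 5.34 CPM, a log2 fold change of 5.45 ± 0.35 (edgeR adjusted p = 1.9e-15).

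Rsad2 ran over 11.03, 210.1 and 325 CPM in neutrophils, with a log2 fold change of 4.35 ± 0.46. Its lowest neutrophil set overlapped the microglial sets, which reached 21.9 CPM. Oasl1, a relative of the OAS enzymes that lowers translation of Irf7, stood at 27.95, 78.99 and 236 CPM in neutrophils and 1.80, 5.06 and 11.96 in microglia (log2 fold change 4.27 ± 0.30). The 5 members lower in neutrophils were Phf11d (-3.17), Phf11b (-2.72), Iigp1 (-2.71 ± 0.99), Bst2 (-1.77) and Ifi213 (-1.33 ± 0.57). Iigp1 was near 0 in neutrophils, at 2.15 CPM against 14.9 CPM in microglia. Ifi213 had 7 UMIs in all neutrophils, 3.76 CPM, against 9.96 CPM in microglia.

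Bst2 (tetherin), which holds budding virus at the cell surface, was at 22.7, 59.3 and 87.03 CPM in neutrophils and at 141, 221 and 361 CPM in microglia, with no overlap. Phf11b and Phf11d, which encode proteins with a PHD finger, were at or near 0 in neutrophils: Phf11d had 5 UMIs in all neutrophils, 2.69 CPM, against 22.3 CPM in microglia. Phf11b had 7 UMIs there, 3.76 CPM, against 27.2 CPM.

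T cells differed from microglia in both directions, with 19 of 39 members higher and 11 lower, beside 36.2% and 39.1% of all genes, and a median of 0.44 against -0.05 over all genes. The split ran through the p200 family, whose proteins bind DNA through a HIN domain. Ifi206 stood at 75.6, 113 and 213 CPM (lowest, median and highest of 8 sets) in T cells and 3.38, 8.91 and 17.8 CPM in microglia, a log2 fold change of 3.66 ± 0.14 (edgeR adjusted p = 4.0e-22). Ifi213 was higher by 2.56 ± 0.15 and Ifi209 by 2.12 ± 0.13.

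The other members of the family went the opposite way. Ifi207 stood at 0, 0.319 and 2.66 CPM in T cells, with 10 UMIs in all, and at 13.3, 42.5 and 80.7 CPM in microglia, a log2 fold change of -5.83 ± 0.34. Ifi204 was lower with a log2 fold change of -3.68 ± 0.25 and Ifi211 with -2.07 ± 0.28. These genes lie in a cluster on chromosome 1 and are alike in sequence, so reads may have been split or lost between them.

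Slfn2, a Schlafen gene that mouse T cells need to stay quiescent, was at 371, 527 and 641 CPM in T cells and 51.3, 76.1 and 103 CPM in microglia, with no overlap (log2 fold change 2.67 ± 0.12). All 4 GTPases, of families that act against intracellular microbes and are classic targets of interferon-gamma, were higher in T cells. The log2 fold change was 2.34 for Iigp1, 2.18 for Igtp, 1.62 for Gbp2 and 0.87 for Irgm1. Phf11d was lower (-2.80 ± 0.22), as were Ifitm3 (-1.52), Oasl2 (-1.51) and Bst2 (-0.50).

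NK cells had few cells, and were compared only over the 4 sets with at least 10 of them, an alternative chosen after the data were seen. There 6 of 39 members were higher than in microglia and 7 lower, beside 18.9% and 27.6% of all genes. Neither count was above the share of all genes, so the list as a whole did not stand out in NK cells. The higher members were Ifi206 (3.36), Oas3 (2.35), Ifi209 (2.11), Slfn2 (1.49), Ddx58 (1.27) and Ifi35 (0.59), on the log2 scale. The lower members were Ifi207 (-4.46), Phf11d (-3.49), Ifi204 (-3.04), Ifi27l2a (-2.45), Ifitm3 (-1.60), Bst2 (-1.29) and Stat2 (-1.09). Ifi27l2a was thus lower in NK cells than in microglia, whereas in T cells it was higher by 2.28 ± 0.26. Several of the NK values rest on few UMIs. Over all NK cells Ifi27l2a had 11 UMIs, Ifi204 and Oas3 had 6 each and Ifi207 had 1, and Phf11d stood at 2.05 CPM.

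Whether microglia of the thalamus and of the HPC differed in these transcripts was asked next. Summed over the members, microglia held 2527, 1520.2, 1595 and 2105 CPM in thalamus sets 1 to 4 and 1599, 1086, 1079 and 1484 CPM in HPC sets 1 to 4, a mean of 1937 ± 472 (SD, n = 4) against 1312 ± 269 (SD, n = 4). The groups overlapped, and sets 1 and 4 were the higher ones in both regions. Within each set number the thalamus was higher.

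**Figure D2:**
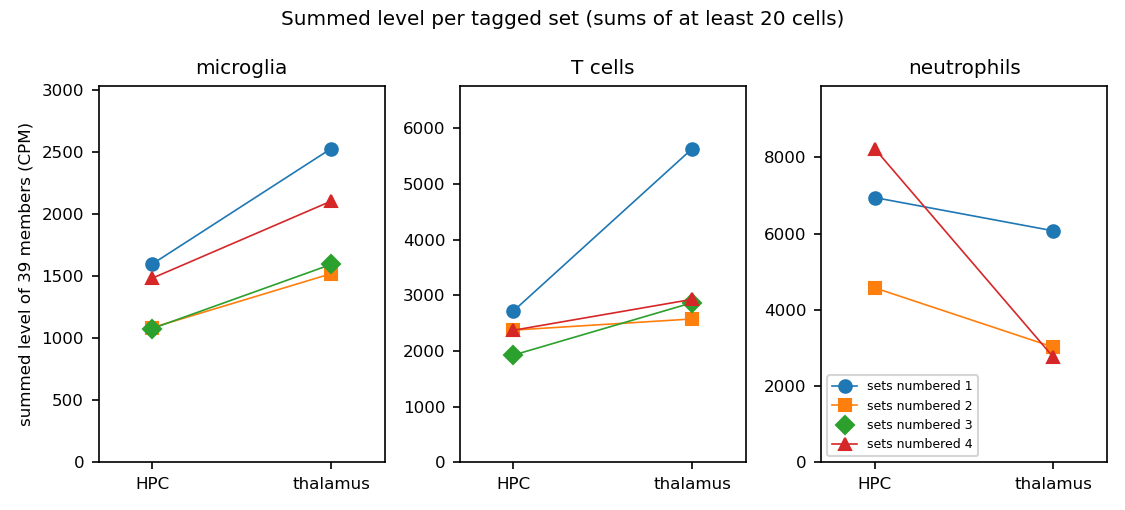
Summed level of the 39 members in CPM (vertical axes, each from 0) in microglia, T cells and neutrophils of each tagged set, HPC at left and thalamus at right, with lines joining sets of the same number. In microglia and T cells all 4 lines rise to the thalamus, in neutrophils the 3 lines with enough cells fall, and thalamus set 1 stands apart in T cells at 5636 CPM.

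Of the 39 members 8 were higher in thalamic microglia and 0 lower (edgeR quasi-likelihood test, adjusted over 12941 genes), where 9.14% of all genes were higher and 4.58% lower. The median log2 fold change of the members was 0.70, against -0.01 over all genes, and 37 of 39 values were above 0. With the set number as a block, 31 of 39 were higher and 0 lower, beside 16.7% of all genes higher. The deviations of microglial sums of the same number correlated at 0.50, 0.12, 0.47 and 0.15 for numbers 1 to 4. Those of different numbers correlated at -0.49 to 0.17, so only numbers 1 and 3 stood out. The labels do not say what a number marks.

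Ifi27l2a, which encodes a small hydrophobic membrane protein, had the largest difference. It stood at 242, 77.5, 109 and 174 CPM in thalamus sets 1 to 4 and 60.4, 29.2, 31.2 and 43.5 CPM in HPC sets 1 to 4. All thalamus sets were above all HPC sets, and the log2 fold change was 1.94 ± 0.37 (SE, edgeR adjusted p = 0.010).

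Irf7, the transcription factor that amplifies type I interferon production, was at 38.99, 11.7, 14.5 and 25.04 CPM in thalamus sets 1 to 4 and 12.1, 4.70, 5.97 and 9.99 CPM in HPC sets 1 to 4. Thalamus set 2 lay just under HPC set 1, and the other sets did not overlap (log2 fold change 1.53 ± 0.42, edgeR adjusted p = 0.041). Isg15, a ubiquitin-like protein attached to new proteins, was at 72.99, 28.7, 39.6 and 48.96 CPM in thalamus sets 1 to 4 and 32.2, 18.3, 17.3 and 28.1 CPM in HPC sets 1 to 4. Thalamus set 2 was again below HPC set 1 (log2 fold change 1.06 ± 0.31, edgeR adjusted p = 0.048).

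Ifi207 was at 80.7, 59.4, 44.02 and 64.5 CPM in thalamus sets 1 to 4 and 41.04, 19.3, 13.3 and 35.2 CPM in HPC sets 1 to 4, without overlap (log2 fold change 1.24 ± 0.33, edgeR adjusted p = 0.036). Rtp4, a receptor transporter protein with antiviral activity, was at 70.3, 34.1, 43.4 and 61.5 CPM in thalamus sets 1 to 4 and 30.3, 18.7, 20.7 and 33.2 CPM in HPC sets 1 to 4. Its groups did not overlap either, by a narrow gap between thalamus set 2 and HPC set 4 (log2 fold change 1.10 ± 0.26, edgeR adjusted p = 0.023).

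Phf11b was at 42.5, 29.5, 32.9 and 42.5 CPM in thalamus sets 1 to 4 and 18.8, 17.6, 19.1 and 20.8 CPM in HPC sets 1 to 4, with the HPC sets close together and well below the thalamus sets (log2 fold change 1.03 ± 0.13, edgeR adjusted p = 0.0020). Slfn2 was at 103, 76.3, 80.7 and 95.2 CPM in thalamus sets 1 to 4 and 75.8, 51.3, 53.02 and 71.1 CPM in HPC sets 1 to 4, and the lowest thalamus set barely exceeded the highest HPC set (log2 fold change 0.57 ± 0.16, edgeR adjusted p = 0.047). Ifi35, a leucine zipper protein, was at 62.7, 55.4, 53.6 and 64.03 CPM in thalamus sets 1 to 4 and 46.8, 48.6, 43.6 and 54.01 CPM in HPC sets 1 to 4, with overlap at thalamus set 3 and HPC set 4 (log2 fold change 0.36 ± 0.09, edgeR adjusted p = 0.026). Of these 8 members Isg15, Phf11b and Ifi207 held an ISRE core in the promoter window, Ifi35, Irf7 and Slfn2 did not, and no window was matched for Ifi27l2a and Rtp4.

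**Figure D3:**
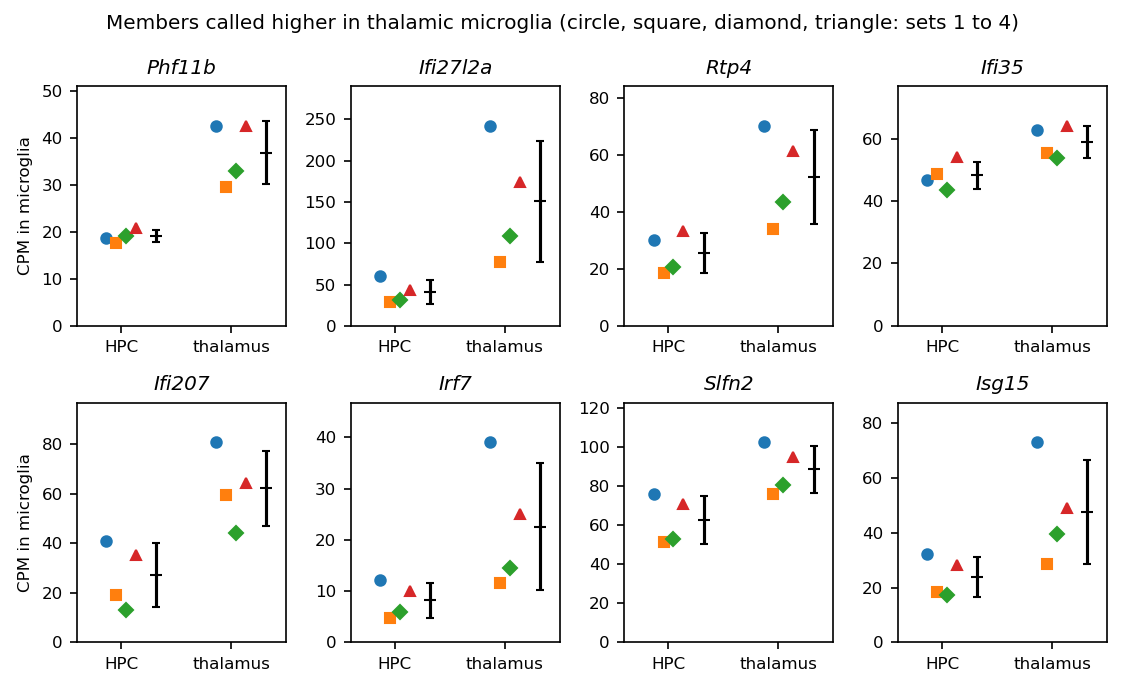
Level in microglia (CPM, axes from 0) of the 8 members called higher in the thalamus, with 1 point per tagged set and bars for the mean ± SD of 4 sets. Phf11b, Ifi27l2a, Rtp4, Ifi207 and Slfn2 show no overlap of the regions, and Irf7, Isg15 and Ifi35 overlap by 1 thalamus set.

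The regions did not overlap, thalamus above HPC, for 5 of 39 members, beside 8.52% of all genes. By role, the block fit had 3 of 4 IFIT genes higher, both genes of the ISG15 system, all 5 OAS genes, all 5 measured restriction and membrane proteins, all 3 transcription factors and 5 of 6 p200 genes. Without the block, Usp18, the protease that removes Isg15 and damps the interferon receptor, stood at 0.99 ± 0.30 on the log2 scale (edgeR adjusted p = 0.056), and Ifit3, which binds foreign RNA with its relatives, at 0.71 ± 0.24 (edgeR adjusted p = 0.075). Stat2 and Irf9, partners in ISGF3, had small values of 0.29 ± 0.16 and 0.20 ± 0.07.

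No GTPase was called. Their log2 fold changes were 0.21 ± 0.51 for Iigp1, 0.08 ± 0.09 for Igtp, 0.07 ± 0.15 for Irgm1 and -0.01 ± 0.36 for Gbp2, and the block fit called none of them either. Igtp was at 24.8, 23.9, 25.02 and 29.3 CPM in thalamus sets 1 to 4 and 21.2, 27.2, 26.9 and 28.2 CPM in HPC sets 1 to 4, ranges that lie over each other. The other members that did not pass with the block were Ifit3b, Ddx58 (the RNA sensor RIG-I), Ifi213 and Slfn8, at 0.58, 0.11, 0.22 and -0.02 in that fit.

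The count of 8 moved with single sets. Leaving out any 1 of thalamus sets 1 and 4 and HPC sets 2 and 3 brought it to 2, leaving out HPC set 4 brought it to 4, and leaving out HPC set 1 brought it to 23. Phf11b and Ifi27l2a were called in all 8 of these fits. Beside the regional difference, Malat1, a nuclear RNA, ran from 17194 to 20813 CPM in thalamic microglia and from 24430 to 25582 CPM in HPC microglia, and 5 members were called without microglia poor in Malat1. The T cell markers (13 of 13 detected) summed to 41.9 to 46.9 CPM in thalamic and 20.5 to 25.4 CPM in HPC microglia. The macrophage markers (12 of 13, Lyve1 at 0) summed to 32.3 to 67.5 and 15.5 to 55.7 CPM. Those of dendritic cells (11 of 11) summed to 199 to 263 and 263 to 326 CPM. Over all microglia, Fscn1 and Wdfy4 made up most of the dendritic sum, at 126 and 135 CPM, with Flt3 at 1.78 CPM. Those of neutrophils (12 of 12) summed to 437 to 446 and 484 to 505 CPM. Csf3r made up most of the neutrophil sum, at 447 CPM, with S100a8 at 10.2 CPM. The tissue dissociation genes (11 of 11) summed to 3790 to 5676 and 3487 to 4621 CPM. The part of any of these, Malat1 included, in the result was not tested.

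In T cells the same comparison gave no call in the main fit, which had no block. Summed over the members, T cells held 5636, 2578, 2869.5 and 2930.0 CPM in thalamus sets 1 to 4 and 2722, 2378, 1929 and 2375 CPM in HPC sets 1 to 4. Thalamus set 1 was far above all others, and of the others thalamus sets 3 and 4 exceeded the highest HPC set. Of 32 members tested 0 were called (edgeR; 17 had an unadjusted p under 0.05, and DESeq2 called 0), beside 0.189% of all genes higher. All 32 values were above 0, with a median of 0.65 against 0.01 over all genes. Without both sets numbered 1 the median was 0.28. With the set number as a block 21 of 34 members were higher and 0 lower, beside 0.981% of all genes higher. The block fit without both sets numbered 1 had 3 members higher, beside 32 of 8377 genes. The deviations of T cell sums of the same number correlated at 0.180, 0.048, 0.022 and 0.252.

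Beside these values, microglial markers in T cells (11 of 11 detected) summed to 544 to 561 CPM in the thalamus sets and 469 to 499 CPM in the HPC sets, with no overlap. The tissue dissociation genes summed to 2334 to 2799.96 and 1763 to 2377 CPM in T cells. Their part in the T cell and interaction results was not tested.

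The largest values were those of Oasl2, Ifit3, Isg15, Rsad2 and Ifit1. Isg15 was at 318, 74.4, 121 and 147 CPM in thalamus sets 1 to 4 and 64.8, 22.05, 7.56 and 45.6 CPM in HPC sets 1 to 4, without overlap (log2 fold change 1.84 ± 0.42, edgeR adjusted p = 0.15). Ifit3 was at 135, 15.6, 75.8 and 64.6 CPM in thalamus sets 1 to 4 and 17.9, 3.67, 7.56 and 16.4 CPM in HPC sets 1 to 4, with thalamus set 2 below HPC sets 1 and 4 (log2 fold change 2.34 ± 0.56, edgeR adjusted p = 0.17). Without thalamus set 2 these 2 members were called and no other.

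Ifit1, which blocks translation of RNA that lacks a host cap, was at 188, 46.01, 60.6 and 75.8 CPM in thalamus sets 1 to 4 and 33.5, 15.9, 7.56 and 31.03 CPM in HPC sets 1 to 4. Its regions did not overlap (log2 fold change 1.78 ± 0.43, edgeR adjusted p = 0.17). The regions did not overlap for 7 of the 32 members tested, namely Isg15, Ifit1, Oasl2, Rsad2, Ifitm3, Ifi209 and Ifi213, beside 2.77% of all genes. In HPC set 3, with 132192 UMIs of T cells, a level of 7.56 CPM is 1 UMI.

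**Figure D4:**
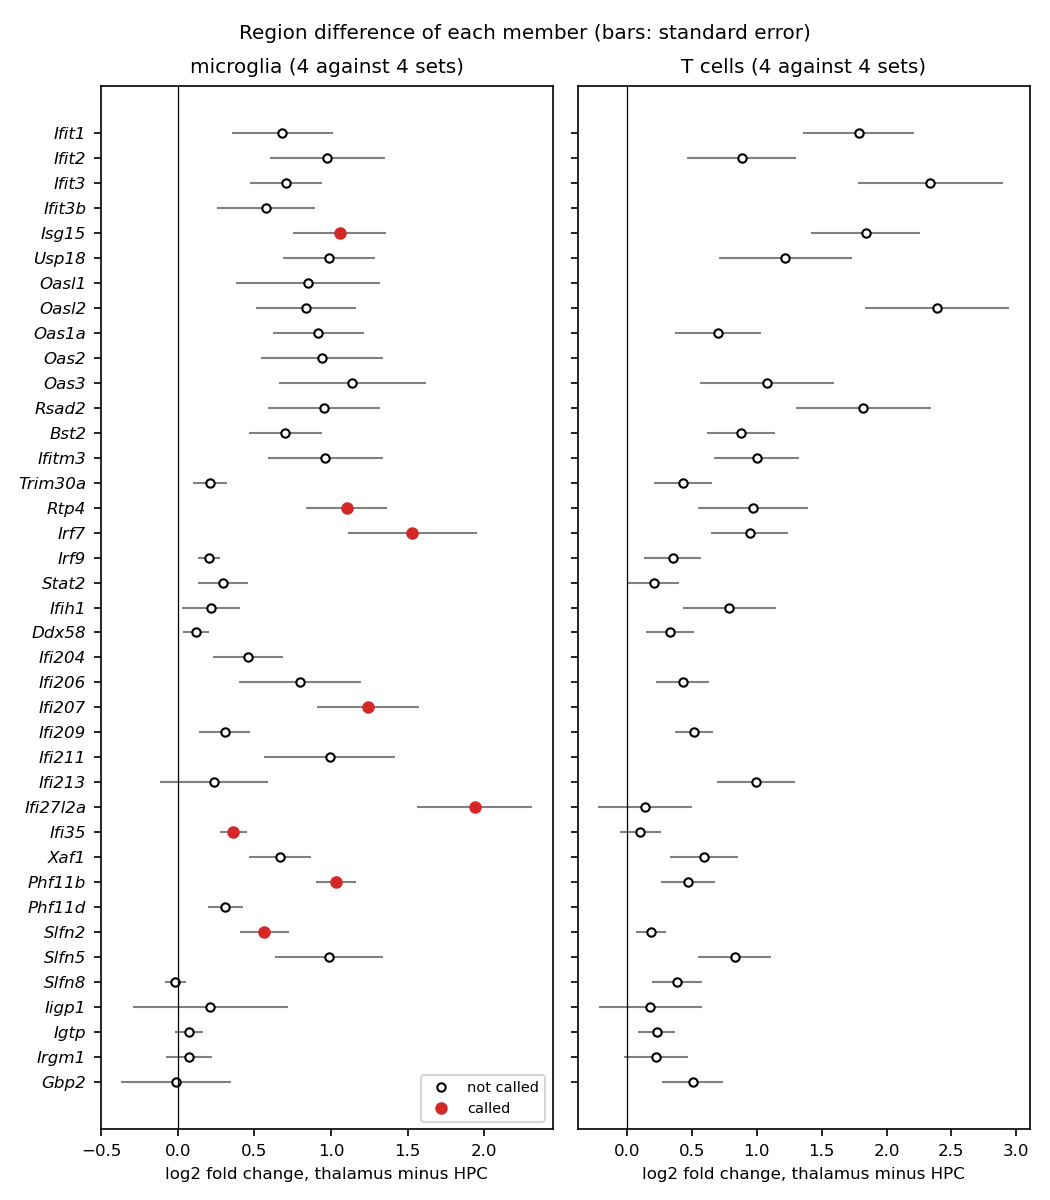
Log2 fold change of each member (rows) between thalamus and HPC in microglia (left) and T cells (right), with bars for the standard error and red points for members called at an adjusted p under 0.05. Members with no point in T cells were not tested. Ifi27l2a lies farthest to the right in microglia at 1.94 and near 0 in T cells at 0.14, while Ifit3 and Oasl2 lie farthest to the right in T cells.

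Whether a regional difference was unlike in the classes was tested directly, with an interaction of class and region and the set as a block. It was greater in T cells than in microglia for 5 of 39 members, beside 0.114% of all genes, and smaller for 1, beside 1.53%. For Ifi27l2a the difference in T cells minus that in microglia was -1.86 ± 0.26 on the log2 scale (edgeR adjusted p = 6.1e-05). In T cells it was at 1081, 351, 326 and 276 CPM in thalamus sets 1 to 4 and 559, 479, 212 and 480.1 CPM in HPC sets 1 to 4, with thalamus set 1 the highest and the other thalamus sets within the range of the HPC sets.

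The difference was greater in T cells for Ifi204 (1.79 ± 0.42, edgeR adjusted p = 0.019), Oasl2 (1.76 ± 0.40, edgeR adjusted p = 0.014), Ifit3 (1.73 ± 0.35, edgeR adjusted p = 0.0049), Ifit1 (1.29 ± 0.24, edgeR adjusted p = 0.0025) and Isg15 (0.93 ± 0.20, edgeR adjusted p = 0.011). Without thalamus set 1 or without HPC set 1 the difference was greater in T cells for 3 members. In both fits these included Ifit1 and Ifit3, and Ifi27l2a remained called as smaller. Ifi204 had 80 UMIs in all T cells, at or under 14.4 CPM in every set.

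In neutrophils no member was called between the regions. Over the 3 sets of each region with at least 20 neutrophils, the summed level was 6072, 3023 and 2758 CPM in thalamus sets 1, 2 and 4 and 6945, 4577 and 8225 CPM in the HPC sets of these numbers, with overlap. Of 25 members tested 0 were called (edgeR; 10 had an unadjusted p under 0.05, and DESeq2 called 0), beside 0.0626% of all 3195 genes higher and 0 genes lower. The median log2 fold change was -0.84, against -0.0006 over all genes, and 1 of 25 values was above 0, that of Bst2 at 0.06 ± 0.39. The lowest was Gbp2, a guanylate-binding protein, at -1.91 ± 0.51 (edgeR adjusted p = 0.87).

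In macrophages and dendritic cells the regions were compared over sums of at least 10 cells, 4 sets against 4, chosen after the data were seen. In macrophages 0 of 30 members tested were called (edgeR; 5 had an unadjusted p under 0.05), beside 0.0% of all genes higher, with 28 of 30 values above 0 and a median log2 fold change of 0.42. With the set number as a block 0 of 36 were called (10 had an unadjusted p under 0.05). Over the 3 thalamus and 2 HPC sets of at least 20 cells 0 of 36 were called (9 had an unadjusted p under 0.05), with a median of 0.79. In dendritic cells 0 of 20 members tested were called (edgeR; 2 had an unadjusted p under 0.05), beside 0.042% of all genes higher, with a median of 0.11. With the block 0 of 27 were called (5 had an unadjusted p under 0.05).

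How the transcripts were spread over cells was described with cells marked by at least 3 UMIs of the IFIT family. In microglia 415 of 18745 cells (2.21%) were marked, from 0.890% in HPC set 3 to 5.13% in thalamus set 1, and they held 2.64% of all UMIs. Marked cells had a median of 5484 UMIs and the others 4646, and cells were not thinned to a common depth. These cells held 61.6% of the Rsad2 UMIs, 54.9% of those of Oasl1 and 37.6% of those of Isg15. Isg15 stood at 507 CPM in marked cells and 22.9 CPM in the others.

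Other members were spread more evenly. Marked microglia held 9.56% of the Bst2 UMIs, 8.83% of those of Slfn8, 8.34% of those of Ifi35 and 4.06% of those of Irf9. Irf9 stood at 69.6 CPM in marked cells and 44.7 CPM in the others. By role, the median share was 34.9% in the ISG15 system, 31.5% in the OAS family and in the p200 family, 17.3% in the restriction and membrane proteins, 15.1% in the GTPases, 13.9% in the transcription factors and 12.1% in the RNA sensors. Of the GTPases Iigp1 had 37.3% and Igtp 10.3%.

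**Figure D5:**
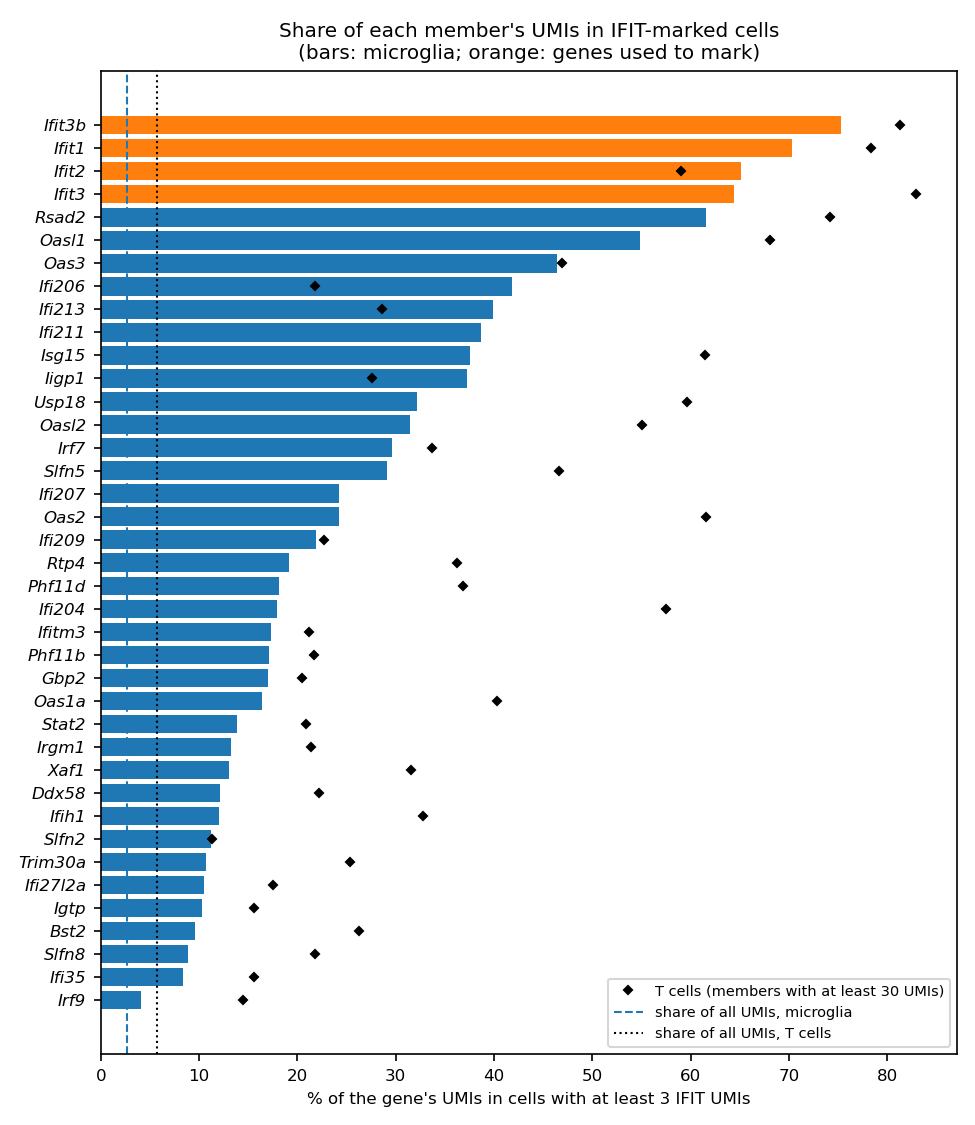
Share of each member's UMIs (horizontal axis, %) that lay in cells with at least 3 UMIs of the IFIT family, as bars for microglia (orange for the genes used to mark) and diamonds for T cells, with vertical lines for the share of all UMIs in those cells. Rsad2 and Oasl1 reach 61.6% and 54.9% in microglia and Irf9 lies near the line at 4.06%.

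The regional difference in microglia was also measured without these cells, an alternative chosen after the data were seen. Without them 9 of the 34 members tested outside the IFIT family were called higher in the thalamus and 0 lower, with a median log2 fold change of 0.64, against 8 of 34 and 0.68 with all microglia. Of all genes 9.14% were higher with all microglia, and the share without the marked cells is not given here. In T cells 155 of 2800 (5.54%) were marked, 69 of the 414 in thalamus set 1 (16.7%) and 0 of 30 in HPC set 3, which allows a share of up to 10.0%. Marked T cells held 74.2% of the Rsad2 UMIs and 61.5% of those of Isg15. Slfn2 had 11.3% there.

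Genes of the pathway that are no members were read from lists. Of 10 interferon genes 7 had no UMI in the 6 classes, which allows a level of up to 0.0277 CPM over all of them, and Ifnk had 6 UMIs. Ifnb1 (interferon-beta) had 21 UMIs in 5 cells, 14 of them in a single microglial cell of thalamus set 3 and 4 in a macrophage of thalamus set 1. Ifng (interferon-gamma) had 410 of its 461 UMIs in T cells and 35 in NK cells. In T cells it stood at 71.1, 51.4, 27.8 and 20.7 CPM in thalamus sets 1 to 4 and 38.97, 29.4, 22.7 and 27.4 CPM in HPC sets 1 to 4, with overlap, and 33 of the 107 UMIs in thalamus set 1 lay in a single cell.

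Between the regions in microglia, 0 of 5 receptor genes and 0 of 6 negative regulators tested were called (edgeR). The block fit called Ifngr1 lower and, of the negative regulators, Ptpn6 and Socs3 higher, at -0.22, 0.34 and 0.18 on the log2 scale (edgeR adjusted p = 0.037, 1.8e-04 and 0.042). Without the block Ifnar1 had a log2 fold change of -0.08 ± 0.11 and Ifngr1 of -0.21 ± 0.08. Of 14 inducers and sensors 2 were higher in the thalamus: Zbp1, a sensor of left-handed nucleic acid, by 1.39 ± 0.38 (edgeR adjusted p = 0.040), and Irf8, a lineage factor of microglia, by 0.28 ± 0.05 (edgeR adjusted p = 0.0093). Tlr3, which senses double-stranded RNA, was lower with a log2 fold change of -0.38 ± 0.07, and Tmem173 (STING) with -0.37 ± 0.08.

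Of 49 further interferon-induced genes tested 5 were higher and 2 lower, shares near the 9.14% and 4.58% of all genes, with a median of 0.23. In the block fit 24 were higher and 4 lower of 50, beside 16.7% and 12.1% of all genes. The higher genes were Ms4a4b (1.59 ± 0.20), Phf11a (1.19 ± 0.31), Isg20 (1.12 ± 0.21), a nuclease of single-stranded RNA, Ifi203 (0.97 ± 0.24) of the p200 family and Ube2l6 (0.94 ± 0.22), the conjugating enzyme of Isg15. Ms4a4b is a gene of T and NK cells, at 673 CPM in T cells and 6.20, 5.72, 5.21 and 5.29 CPM in thalamic microglia. The lower genes were Gbp7 (-0.63 ± 0.12) and Irgm2 (-0.29 ± 0.07), both of the GTPase families. In T cells 0 genes of these lists were called between the regions, at 1 to 47 genes tested per list.

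Between classes, the interferon-gamma receptor chain Ifngr2 was lower in T cells than in microglia with a log2 fold change of -3.44 ± 0.13 and Ifnar2 with -1.72 ± 0.09. Of 6 receptor genes 4 were lower in T cells and 0 higher, beside 39.1% and 36.2% of all genes. Socs1, an inhibitor of Jak kinases, was higher than in microglia in T cells (4.12 ± 0.17), neutrophils (1.81 ± 0.40), macrophages (2.19 ± 0.35) and dendritic cells (2.58 ± 0.39). Its list did not follow it in T cells, where 2 of 6 negative regulators were higher and 4 lower. In neutrophils 4 were higher and 0 lower, in macrophages 3 and 1, and in dendritic cells 2 and 1. The shares of all genes are those given above for each class.

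The genes whose level followed the summed members most closely over the 31 class sums were taken from 7201 genes outside the list. They were Dck, Plac8, Pitpna, Parp14 and Chmp4b, with Spearman correlations of 0.91, 0.90, 0.87, 0.87 and 0.87, then Arpc1b, Trim25, Ogfr, Samhd1 and Pcbp1 down to 0.83. The sums share sets and libraries, and differ mostly by class, so the values are a description. Parp14 and Trim25 were on the list of further interferon-induced genes.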

How the data were processed

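The authors deposited counts: raw UMI counts per gene and cell in 8 matrices of 10x 3′ (v3.1) libraries, with no normalization, made per the file headers with Cell Ranger 7.1.0 (the study's methods name another version) on GRCm38 (mm10). Intron counting is not given in the sources used here. Multiplexing oligos were left out. Cells with 200 to 7500 genes and at most 2% mitochondrial counts were kept, as in the study, and 0 barcodes were shared within a region (65 between regions). Microglia needed 4 microglial markers, other classes 3 of their own with at most 4 (lymphocytes, neutrophils) or 6 (macrophages, dendritic cells) microglial ones. Cells of more than 1 class were left out as likely doublets, and no doublet caller was run.

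Sums of at least 20 cells per class and set were tested with edgeR 4.0.16 (R 4.3.3, TMM, filterByExpr, quasi-likelihood), Benjamini-Hochberg adjusted over all genes tested, with a threshold of 0.05. Class and interaction fits had the set as a block. Alternatives used DESeq2 1.42.0, other scaling, filters, gates, clusters (scanpy 1.11.5) and left-out sets. The test between regions was set for classes with at least 3 sets of 20 cells in each region, which NK cells, macrophages and dendritic cells did not reach. Macrophages and dendritic cells were fitted with sums of at least 10 cells, added after the data were seen. Replicates are sets of 1 pool per region, so p-values measure the spread between these sets. In microglia the deviations of sets of the same number correlated at 0.500, 0.122, 0.468 and 0.151 over 12941 genes, against -0.490 to 0.166 between different numbers. The block is given beside that result, although only numbers 1 and 3 exceeded every pair of different numbers. The numbers come from the deposited file names. Members of near-identical paralogs (Ifit3 and Ifit3b, the p200 family, Oas1a, Phf11b and Phf11d, Slfn8) may share reads. The members and lists were chosen with earlier results of these data known. Named by rule were the members called in microglia and the 3 largest called differences in each direction for each class contrast, at 20 CPM or more in the higher class and the members called in the interaction. Any other member named was chosen after its values were seen. Promoters are RefSeq windows (GRCm38.p6). Scripts were tested on simulated counts. No column was left unmapped. A gene of the pathway lists, and the count of its list, are not reported here.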

Additional observations from a re-analysis of the deposited data

Results flagged for a closer look

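A single set stood far from the other 3 of its group by Dixon's test in 6 of 76 groups of 4 sets, where chance gives about 1 in 20. Thalamus set 1 was the high one in T cells for Oasl1 (13.9 CPM), Ifitm3 (105.6 CPM), Ifi27l2a (1081 CPM) and the summed members (5636 CPM). In HPC T cells, HPC set 3, with 30 cells, was low for Ifitm3 (0 CPM), and HPC set 1 was alone above 0 for Ifi207 (0.639 CPM). Of the 414 T cells of thalamus set 1, 69 were marked by the IFIT family, the highest share of any set.

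The regional difference itself differed between T cells and microglia, by the interaction test, for 6 members. In T cells minus microglia it was -1.86 on the log2 scale for Ifi27l2a, 1.29 for Ifit1, 1.73 for Ifit3, 0.93 for Isg15, 1.76 for Oasl2 and 1.79 for Ifi204.

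In microglia, Ifit1 was at 17.2, 7.24, 9.96 and 7.63 CPM in thalamus sets 1 to 4 and 9.58, 5.03, 4.95 and 7.75 CPM in HPC sets 1 to 4. Ifit3 was at 40.4, 20.7, 26.9 and 27.1 CPM in thalamus sets 1 to 4 and 24.1, 13.7, 17.1 and 19.1 CPM in HPC sets 1 to 4. Oasl2 was at 63.6, 34.1, 29.4 and 48.00 CPM in thalamus sets 1 to 4 and 36.8, 16.7, 16.9 and 32.2 CPM in HPC sets 1 to 4, and in T cells at 45.2, 8.80, 10.1 and 21.1 CPM in thalamus sets 1 to 4 and 4.47, 4.90, 7.56 and 1.83 CPM in HPC sets 1 to 4. In these 3 genes the regions overlap in microglia. Ifi204 was at 112, 86.5, 74.03 and 89.3 CPM in thalamus sets 1 to 4 and 94.3, 54.6, 47.3 and 78.98 CPM in HPC sets 1 to 4 in microglia and 13.3, 5.41, 7.58 and 14.4 CPM in thalamus sets 1 to 4 and 2.87, 3.67, 0 and 1.83 CPM in HPC sets 1 to 4 in T cells, with overlap in microglia and none in T cells.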

How the results depend on the processing

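The count of members higher in thalamic microglia was 8. It was 7 to 12 with other scaling (DESeq2 12), gates, clusters, no low-count filter or equal cells per set, 14 with a mitochondrial limit of 5% and 2 to 23 with single sets left out. Chosen after the data were seen, leaving out Malat1-poor cells gave 5 and leaving out both sets numbered 1 gave 18. With the set number as a replicate block it was 31, and 30, 29, 26 and 30 without both sets numbered 1, 2, 3 and 4, which like all fits without both sets of a number, without IFIT-marked cells or with sums of at least 10 cells were chosen after the data were seen. The median of the members stayed above 0 in all of these fits. Of all genes 16.7% were higher with the block. Leaving out both sets of each number in turn gave 2237 of 13055, 1755 of 13315, 1687 of 13479 and 1559 of 13244 genes higher. For the other alternatives the share of all genes is not given here, so their counts cannot be set against it. In T cells 0 members were called higher, but 15 with no low-count filter and 0 to 2 with single sets left out. With the replicate block, 21 were called in T cells and 3, 21, 15 and 18 without both sets of each number, but there the same-number correlations were 0.180, 0.048, 0.022 and 0.252, 2 of them under 0.1. Of all genes, 0.981% were higher with the block in T cells. Without both sets of each number, 32 of 8377, 54 of 9241, 61 of 9906 and 68 of 9391 genes were higher there. The median in T cells was 0.28 without both sets numbered 1, and with the block 0.32 without both sets numbered 1 and 1.14 without both sets numbered 2. In neutrophils 2 members were lower in the thalamus with no low-count filter. Against microglia, 3 members were lower in neutrophils with no replicate block, 17 to 28 were higher with single sets left out, and 1 was lower in dendritic cells with no low-count filter and with a stricter gate. The region difference was greater in T cells for 3 to 6 members with single sets left out. For the 32 named member results, 499 of 540 alternatives kept the direction and the call, 41 lost the call and 0 turned the direction. No class contrast lost a call, so the losses lay in the regional and interaction results. Between regions in microglia, Isg15 lost the call in 8 of 24 alternatives, Slfn2 in 7, Irf7 and Ifi207 in 6, and Ifi35 and Rtp4 in 4. Phf11b and Ifi27l2a lost it in 0 of 24. In the interaction, Ifi204, Isg15 and Oasl2 each lost it in 2 of 10. Upper-quartile scaling moved the median of all genes by 0.10 to 0.14 in the class contrasts, and under DESeq2 Ifi207 and Oas1a in neutrophils and Iigp1 in T cells between regions, none of them called, changed sign. The cause of these moves was not tested. The block changed no call in neutrophils. Depth limits T cells of HPC set 3 (132192 UMIs).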

Other observations

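The summed levels of macrophages, dendritic cells and NK cells over sets of at least 20 cells are given as values. The summed members in macrophages stood at 12312, 7288 and 7204 CPM in thalamus sets 1, 2 and 4 and 7783 and 4428 CPM in HPC sets 1 and 2, with the sets numbered 1 the highest of each region. In dendritic cells they stood at 8757 and 5766 CPM in thalamus sets 1 and 2 and 6474 CPM in HPC set 1. In NK cells the 61 cells of HPC set 1 held 1619.8 CPM.

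Isg15 in macrophages ran from 59.2 to 742 CPM over 5 sets, and Irf7 from 36.4 to 201 CPM. Bst2 kept to a narrower range there, 438 to 628 CPM.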
